A study of Mus musculus with 16 samples.

Results

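The Toll-like receptors of the mouse were followed through adipose tissue of lean and obese mice: Tlr1, Tlr2, Tlr4, Tlr5 and Tlr6 on the cell surface, and Tlr3, Tlr7, Tlr8, Tlr9 and Tlr13 in endosomes. The 10 genes were found by matching the RefSeq identifier of each table entry to its gene symbol, which gave 46 of the 130343 entries, 24 of them with at least 1 count in any library. Counts were summed over the entries of a gene. The 10 receptors are 10 of 35556 symbols in the table. RNA sequencing was done on inguinal subcutaneous adipose tissue (SAT) and mesenteric visceral adipose tissue (VAT) of male wild-type C57BL/6J mice. Of the 8 mice, 4 ate a normal laboratory diet (lean) and 4 a high-fat diet with 42% of its energy from fat and 0.2% cholesterol (obese), in each case from 10 weeks of age and for 12 to 14 months. Every mouse gave 1 SAT and 1 VAT library, so that 16 libraries formed 4 groups of 4. No mouse had both diets, and RNA came from whole tissue, without a sort of cells.

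Toll-like receptors are transmembrane proteins of the innate immune system that bind molecules typical of microbes or of damaged cells. The surface receptors mostly recognize lipids and proteins of microbes, such as lipopeptides, lipopolysaccharide and flagellin, while the endosomal receptors recognize nucleic acids that a cell has taken up. Most of them signal through the adaptor Myd88, Tlr3 signals through Ticam1 (TRIF) and Tlr4 through both, and the signal ends in NF-kB and interferon regulatory factors. In adipose tissue the receptors are best known from macrophages, and Tlr4 also from adipocytes.

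The 10 genes are spread over the genome (build GRCm39, GENCODE annotation). Tlr13 lies at X:105186810-105204533 on the plus strand, and Tlr7 (X:166086758-166113605) and Tlr8 (X:166024184-166047325) lie near each other on the minus strand of the same chromosome. Tlr9 lies at 9:106099797-106104082 and Tlr4 at 4:66745783-66849936, both on the plus strand. Tlr2 lies at 3:83743576-83749074 on the minus strand, Tlr5 at 1:182782311-182805500 on the plus strand, and Tlr3 at 8:45848702-45864117 on the minus strand. Tlr1 (5:65082022-65090941) and Tlr6 (5:65108704-65203497) are neighbours on the minus strand, and they are the 1 pair among 45 whose transcripts share words of 75 bases, the shortest read kept. The shared words are 9.88% of those of Tlr1 and 6.97% of those of Tlr6, so their reads are partly uncertain. The exons of Tlr4 and Tlr3 overlap a noncoding gene on the other strand (Gm69151 and Gm45542), and reads of such pairs cannot be told apart without strand.

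The promoters of the 3 receptors that rose with the high-fat diet in both tissues (Tlr13, Tlr9 and Tlr8, values given with the diet responses) are shown because they can be read side by side. The windows run from 250 bases before to 50 bases after the RefSeq start site (build GRCm38.p6, 300 bases, 5′ to 3′ on the strand of the gene), and capitals mark GAGGAA, the letters of the core site of the myeloid and B cell factor PU.1, or its reverse complement TTCCTC.
Tlr13, chrX:106143025-106143324, plus strand: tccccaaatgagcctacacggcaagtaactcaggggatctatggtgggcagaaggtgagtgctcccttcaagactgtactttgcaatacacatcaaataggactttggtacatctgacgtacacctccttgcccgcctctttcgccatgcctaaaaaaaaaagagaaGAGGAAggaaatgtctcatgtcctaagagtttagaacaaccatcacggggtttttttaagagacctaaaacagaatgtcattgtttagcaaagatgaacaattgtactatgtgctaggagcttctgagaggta
Tlr9, chr9:106222348-106222647, plus strand: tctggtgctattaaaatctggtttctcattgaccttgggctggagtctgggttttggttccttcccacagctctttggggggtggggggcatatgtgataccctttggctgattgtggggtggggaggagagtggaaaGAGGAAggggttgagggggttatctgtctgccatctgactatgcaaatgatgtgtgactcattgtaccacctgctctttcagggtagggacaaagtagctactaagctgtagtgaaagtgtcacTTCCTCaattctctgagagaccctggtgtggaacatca
Tlr8, chrX:167264280-167264579, minus strand: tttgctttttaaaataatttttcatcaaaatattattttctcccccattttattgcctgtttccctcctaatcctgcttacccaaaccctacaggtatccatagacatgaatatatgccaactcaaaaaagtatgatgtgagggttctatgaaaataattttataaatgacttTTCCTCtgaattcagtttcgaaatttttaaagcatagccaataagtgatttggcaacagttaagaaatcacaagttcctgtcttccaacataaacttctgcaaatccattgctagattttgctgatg
The letters stand at position -83 from the start site in Tlr13, at -112 and, on the other strand, at 13 in Tlr9, and on the other strand at -77 in Tlr8. A window with GAGGAA on either strand is common: 28.3% of 32851 promoters hold it. Among the other receptors with a window in the table, Tlr1 holds it at -23 in 1 of its windows, and Tlr2, Tlr3, Tlr5 and Tlr6 do not. One form of the NF-kB site (in 1.63% of all promoters, either strand) was found in Tlr3 alone among the receptors searched, at -211, and one form of the interferon-stimulated response element (in 3.44%) in Tlr6 alone, where 2 matches overlap at -116 and -110. A match describes the letters of the window and nothing more.

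Total counts per library ranged from 4604460 to 11897722 in lean SAT, from 10828758 to 16614407 in obese SAT, from 1256082 to 15802634 in lean VAT and from 2247737 to 11615347 in obese VAT. In the shallowest library (lean VAT replicate 1) 1 count equals 0.796 CPM (counts scaled to the library total), so that a receptor without any count may be as high as 2.39 CPM. In the next shallowest (obese VAT replicate 1) these values are 0.445 and 1.33 CPM. In the deepest (obese SAT replicate 3) they are 0.0602 and 0.181 CPM. Only counting error enters these limits. The labelled tissue was checked by markers: the summed CPM of 8 adipocyte genes lay between 15400 and 58373 in every library, and that of 6 mesothelial genes between 251 and 606 in VAT but at 1.41 or less in SAT. Defining endothelial marker Pecam1 and neutrophil marker Ly6g had no count in any library. They have 4 and 2 entries, and the missing counts were not read as absence of these cells. Group means lay between 76.2 and 103 CPM for the endothelial gene Kdr and between 2.91 and 16.1 CPM for the neutrophil gene S100a8.

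The receptors differ in how well the table measures them. Tlr13, Tlr9 and Tlr4 have 1 entry each and the most counts, 5649, 2737 and 1876 over all libraries. Tlr7 (1174 counts), Tlr2 (539) and Tlr8 (304) have several entries, of which the leading one holds 99.1%, 95.5% and 97.0% of the counts. Tlr5 (299 counts), Tlr1 (121), Tlr3 (118) and Tlr6 (50) are spread over 3 or 4 entries with counts, and the leading entry holds between 64.5% and 66.9%. Genes with several transcripts can lose reads that the transcripts share, so low counts of these receptors were not read as low expression. Genes entered the test across all genes with 3 or more libraries above 1 CPM, which 9 of the 10 receptors had. Tlr6, a partner of Tlr2 for diacylated lipopeptides, did not enter it.

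**Figure D1:**
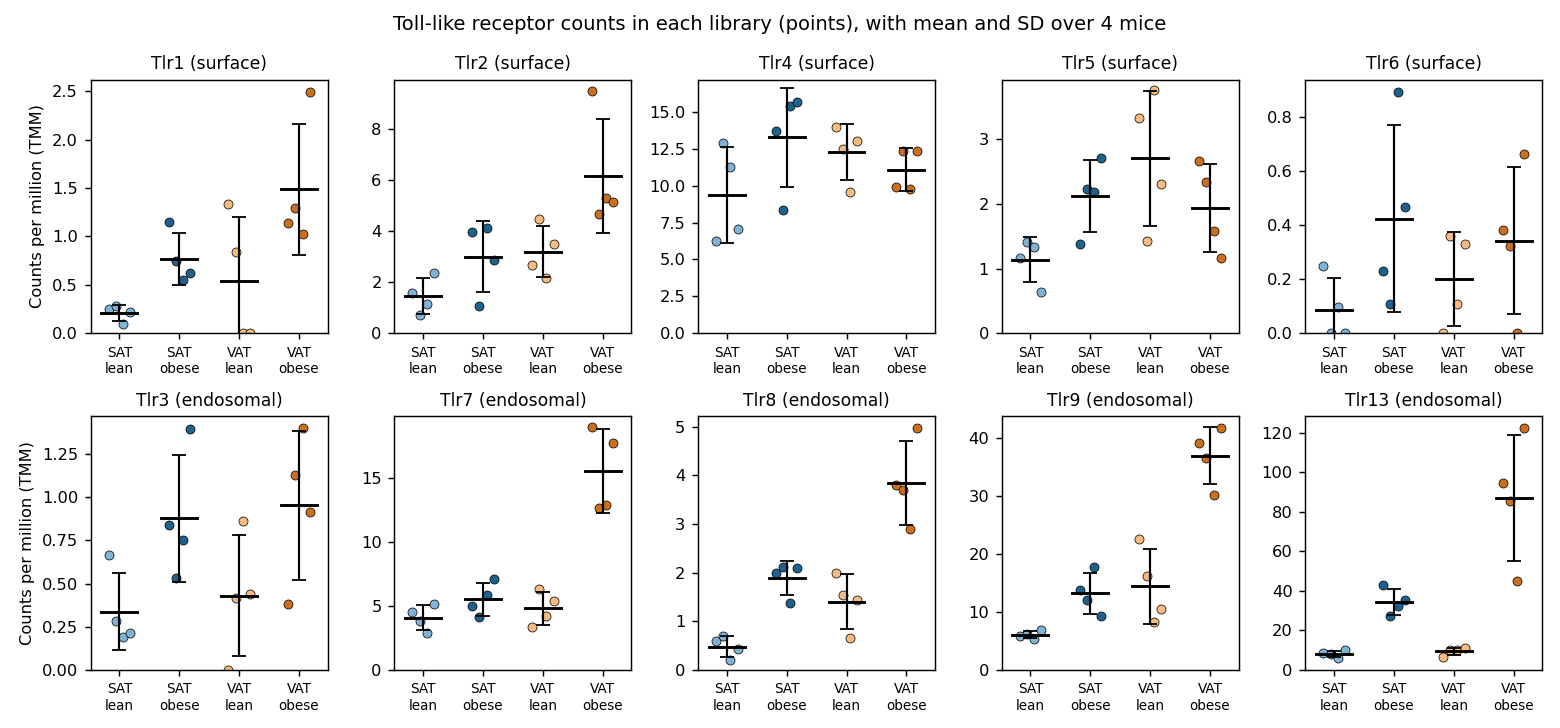
Each panel plots 1 receptor, with the 4 groups on the x axis and CPM scaled by TMM factors on the y axis, which starts at 0. Points are libraries, and bars give the mean and SD over 4 mice. Tlr7, Tlr8, Tlr9 and Tlr13 are highest in the 4 libraries of obese VAT, whereas Tlr4 overlaps between all groups.

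Tlr13 recognizes bacterial ribosomal RNA in endosomes and is the receptor with the most counts in this table. All CPM values of receptors are scaled by TMM factors, which correct for RNA composition. In SAT, Tlr13 was at 8.31, 8.01, 6.12 and 10.0 CPM in lean replicates 1 to 4, and at 42.8, 26.9, 32.5 and 35.1 CPM in obese replicates 1 to 4. In VAT, it was at 6.65, 9.89, 9.91 and 10.97 CPM in the lean libraries and at 94.7, 85.5, 45.2 and 122 CPM in the obese libraries. Every obese library was above every lean library in both tissues, and every obese VAT library was above every obese SAT library. The fitted log2 fold change of obese over lean was 2.10 ± 0.24 (SE) in SAT (adjusted p = 7.79e-06) and 3.14 ± 0.25 in VAT (adjusted p = 7.07e-08, edgeR quasi-likelihood F-test, Benjamini-Hochberg over 12185 genes, n = 4 mice per group). In linear terms these are 4.30-fold and 8.84-fold. In bulk tissue, fewer cells of a type and less RNA per cell cannot be told apart, and this holds for every level reported here.

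Tlr9, the receptor for unmethylated CpG DNA, rose in both tissues. It was at 5.90, 6.18, 5.35 and 6.82 CPM in lean SAT and at 13.8, 12.0, 17.7 and 9.23 CPM in obese SAT. In lean VAT its values spread more, from 22.6 and 16.3 CPM in replicates 1 and 2 to 8.18 and 10.4 CPM in replicates 3 and 4, and obese VAT held 39.2, 36.6, 30.2 and 41.8 CPM. The diets did not overlap in either tissue. The log2 fold change was 1.13 ± 0.25 in SAT (adjusted p = 0.00435) and 1.47 ± 0.24 in VAT (adjusted p = 3.02e-04, edgeR, n = 4).

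Tlr8 and Tlr7 are receptors for single-stranded RNA and its breakdown products. Tlr8 was at 0.582, 0.703, 0.191 and 0.426 CPM in lean SAT and at 1.98, 2.12, 1.37 and 2.09 CPM in obese SAT. In lean VAT it was at 2.00, 1.55, 0.646 and 1.43 CPM, where the value of replicate 1 rests on 3 counts, and in obese VAT at 3.80, 3.71, 2.89 and 4.98 CPM. All obese libraries were above the lean libraries of the same tissue, with log2 fold changes of 1.98 ± 0.41 in SAT (adjusted p = 0.00289) and 1.56 ± 0.35 in VAT (adjusted p = 0.00456, edgeR, n = 4). Tlr7 was at 4.49, 3.79, 2.87 and 5.12 CPM in lean SAT and at 4.95, 4.14, 5.82 and 7.14 CPM in obese SAT, so the diets overlapped. In VAT the lean libraries held 3.33, 6.31, 4.20 and 5.38 CPM and the obese libraries 19.0, 12.7, 12.9 and 17.7 CPM, with a wide gap between them. Its log2 fold change was 1.58 ± 0.24 in VAT (adjusted p = 1.24e-04) and 0.47 ± 0.24 in SAT (adjusted p = 0.224, edgeR, n = 4).

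Tlr3, the receptor for double-stranded RNA, had 118 counts in all and did not pass the test in either tissue. Its mean was 0.338 ± 0.222 CPM (SD, n = 4) in lean SAT, 0.880 ± 0.368 in obese SAT, 0.429 ± 0.352 in lean VAT and 0.955 ± 0.432 in obese VAT. The log2 fold change was 1.25 ± 0.55 in SAT (adjusted p = 0.146) and 0.99 ± 0.53 in VAT (adjusted p = 0.264, edgeR), and the diets overlapped in both tissues. A missed threshold does not show that Tlr3 did not change.

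Among the surface receptors, Tlr4, the receptor for lipopolysaccharide, had the most counts. It was at 6.23, 12.9, 11.3 and 7.04 CPM in lean SAT, at 13.7, 8.38, 15.4 and 15.7 CPM in obese SAT, at 14.0, 12.5, 9.58 and 13.1 CPM in lean VAT and at 9.89, 12.3, 9.80 and 12.4 CPM in obese VAT. All 4 groups overlapped. The log2 fold change was 0.51 ± 0.23 in SAT (adjusted p = 0.160) and -0.10 ± 0.24 in VAT (adjusted p = 0.844, edgeR, n = 4). The standard error in VAT is as small as that of Tlr13, which rose by 3.14.

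Tlr2, which binds lipopeptides together with Tlr1 or Tlr6, was at 1.58, 0.703, 1.15 and 2.35 CPM in lean SAT and at 3.96, 1.06, 4.11 and 2.87 CPM in obese SAT. In VAT it was at 2.66, 4.47, 2.15 and 3.51 CPM in the lean libraries and at 9.51, 4.68, 5.32 and 5.14 CPM in the obese libraries. The diets overlapped in SAT and not in VAT, but the test was not passed in either, with log2 fold changes of 1.13 ± 0.40 (adjusted p = 0.0685) and 0.79 ± 0.36 (adjusted p = 0.181, edgeR). Tlr5, the receptor for flagellin, had means of 1.14 ± 0.347 CPM (SD, n = 4) in lean SAT, 2.13 ± 0.557 in obese SAT, 2.71 ± 1.05 in lean VAT and 1.94 ± 0.686 in obese VAT. Its log2 fold change was 0.84 ± 0.37 in SAT (adjusted p = 0.151) and -0.47 ± 0.37 in VAT (adjusted p = 0.485). Tlr1 had no count in lean VAT replicates 3 and 4 and at most 30 counts in any library, with log2 fold changes of 1.83 ± 0.78 in SAT (adjusted p = 0.138) and 1.88 ± 0.69 in VAT (adjusted p = 0.0800). Tlr6 had between 0 and 13 counts per library, and its mean CPM was 0.0862 in lean SAT, 0.423 in obese SAT, 0.199 in lean VAT and 0.342 in obese VAT.

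By class, 3 of the 5 endosomal receptors rose in SAT (Tlr13, Tlr8, Tlr9) and none of the 4 surface receptors tested did, where 6.35% of all genes tested rose and 11.6% changed in either direction. In VAT, 4 of the 5 endosomal receptors rose (Tlr13, Tlr7, Tlr9, Tlr8) and none of the 4 surface receptors, beside 6.89% of all genes that rose and 12.2% that changed. No receptor fell in either tissue. With the size limit of 1.5 on the log2 scale that the study used, the count was 2 in SAT (Tlr13 and Tlr8, beside 1.37% of all genes) and 3 in VAT (Tlr13, Tlr7 and Tlr8, beside 2.25%). The 3 receptors that rose in both tissues stand beside 2.32% of all genes. The median log2 fold change of the endosomal receptors was 1.25 in SAT and 1.56 in VAT, that of the 4 surface receptors 0.99 and 0.34, and that of all genes 0 and -0.02. Tlr1 and Tlr3 passed the filter only through obese VAT, so these medians are a description. Tlr1 and Tlr5 have 121 and 299 counts, and a missed threshold does not show that a surface receptor did not change. Libraries of the diets did not overlap for Tlr1, Tlr8, Tlr9 and Tlr13 in SAT, where 9.52% of all genes were higher without overlap, and for Tlr2, Tlr7, Tlr8, Tlr9 and Tlr13 in VAT, where 7.98% were. Without the mice of the shallowest VAT libraries (lean and obese replicate 1), edgeR called 3 receptors in SAT and 4 in VAT. The absence of calls among surface receptors depends on the fit. Tlr2 in SAT passed with no filter on low counts (adjusted p = 0.0186), with DESeq2 (0.0488) and without obese mouse 2 (0.0199). Tlr1 in VAT passed with no filter (0.0485), with the newer edgeR setting (0.0189), with limma voom (0.0182) and without lean mouse 2 (0.0215). Since Tlr1 passed the filter only through obese VAT, where it is high, its calls in the filtered fits support nothing.

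**Figure D2:**
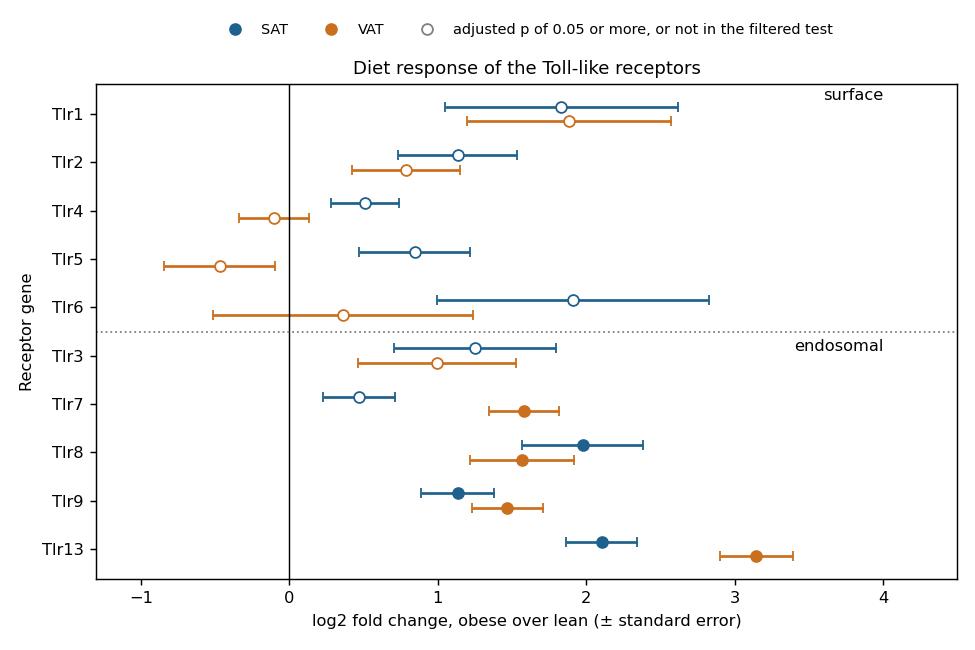
The x axis gives the log2 fold change of obese over lean mice with its standard error, for each receptor in SAT (blue) and VAT (orange), and filled points passed an adjusted p of 0.05. Values for Tlr6 come from a fit without the filter on low counts. Filled points belong to endosomal receptors only, and Tlr13 in VAT lies farthest to the right at 3.14.

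The share of receptor counts that fell on the surface class was computed in each library. It was 39.2% ± 8.81 (SD, n = 4) in lean SAT, with libraries between 31.2% and 48.7%, and 25.7% ± 3.57 in obese SAT, between 21.5% and 28.9%. In VAT it was 38.5% ± 1.74 in lean mice, between 36.3% and 40.1%, and 13.1% ± 2.32 in obese mice, between 10.4% and 16.1%. The diets did not overlap in either tissue. Summed surface receptors were at 12.2 ± 2.84 and 19.6 ± 4.86 CPM in lean and obese SAT, and at 18.9 ± 2.39 and 21.0 ± 2.45 CPM in lean and obese VAT. Summed endosomal receptors were at 19.1 ± 3.27 and 55.8 ± 7.78 CPM in SAT, and at 30.4 ± 5.18 and 144 ± 39.8 CPM in VAT. Tlr13 alone held 25.9% of receptor counts in lean SAT, 45.5% in obese SAT, 19.6% in lean VAT and 51.3% in obese VAT. The log2 ratio of surface to endosomal counts was lower in obese than in lean mice by 0.89 in SAT and by 2.07 in VAT. These ratios rest on the receptors with most counts: without Tlr4 and Tlr13 the difference of obese minus lean was 0.13 in SAT and -0.94 in VAT. Since the receptors were chosen with earlier results known, the class values carry no test.

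**Figure D3:**
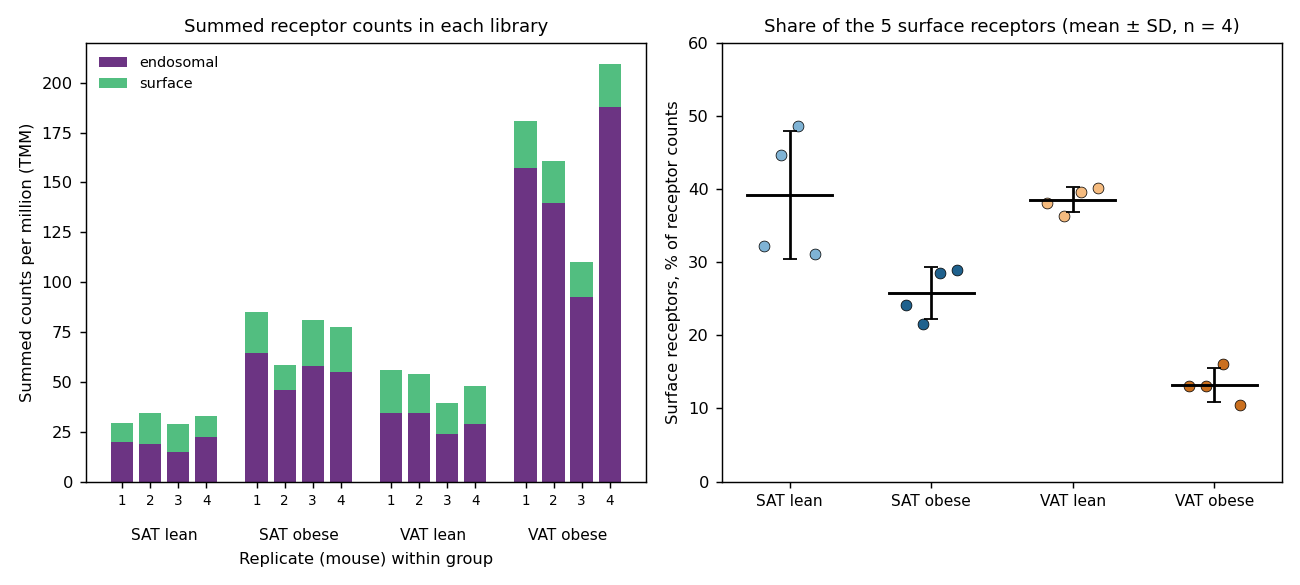
The left panel stacks the summed CPM of the 5 endosomal and the 5 surface receptors in each of the 16 libraries, and the right panel plots the share of receptor counts on surface receptors, with mean and SD over 4 mice. The surface share lies between 10.4% and 16.1% in obese VAT and between 36.3% and 40.1% in lean VAT.

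Levels of different genes were compared per length, and only for the 3 receptors with 1 entry (Tlr4, 4115 bases, Tlr9, 3478 bases, and Tlr13, 4518 bases, length of the main transcript). In lean SAT the level was 2.28 ± 0.789 CPM per kilobase for Tlr4, 1.74 ± 0.176 for Tlr9 and 1.80 ± 0.354 for Tlr13 (SD, n = 4), so the 3 levels overlapped. In obese VAT it was 2.70 ± 0.351 for Tlr4, 10.6 ± 1.43 for Tlr9 and 19.2 ± 7.07 for Tlr13. The lowest Tlr13 library of obese VAT, at 9.99, was above the highest of Tlr4, at 3.00. In obese SAT the levels were 3.23 ± 0.823, 3.79 ± 1.02 and 7.60 ± 1.46, and in lean VAT 2.98 ± 0.461, 4.13 ± 1.86 and 2.07 ± 0.414.

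The order of the groups was the same for Tlr1, Tlr3, Tlr7, Tlr8 and Tlr13: lean SAT, lean VAT, obese SAT and obese VAT from the lowest mean to the highest. Only the step from obese SAT to obese VAT was without overlap in Tlr7 and Tlr8, and in Tlr13 the step from lean VAT to obese SAT was as well. Tlr9 was ordered lean SAT, obese SAT, lean VAT and obese VAT, and of these steps that from obese SAT to lean VAT overlapped. For Tlr2 the libraries of neighbouring groups overlapped except between lean and obese VAT, and for Tlr1, Tlr3, Tlr4, Tlr5 and Tlr6 every neighbouring pair overlapped.

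VAT and SAT were compared within mice, with the mouse as a block. In lean mice Tlr9 was higher in VAT by 1.13 ± 0.25 on the log2 scale (adjusted p = 0.00272), Tlr8 by 1.505 ± 0.46 (adjusted p = 0.0299) and Tlr2 by 1.22 ± 0.39 (adjusted p = 0.0384, edgeR, n = 4 mice). These 3 of the 9 receptors tested stand beside 8.67% of all genes that were higher in VAT and 15.9% that differed. Each of the 3 was higher in VAT in 4 of 4 lean mice. Tlr9 alone was called without the mice of the shallowest VAT libraries, at a log2 difference of 0.90 (adjusted p = 0.0319). Tlr8 was not called with no filter on low counts (adjusted p = 0.0702), with DESeq2 (0.0574) or when any of the 4 lean mice was left out (0.0707 to 0.0935), nor was Tlr2 without lean mouse 2 (0.309), lean mouse 3 (0.0750) or obese mouse 4 (0.0501). Tlr13 did not pass the test, with a log2 difference of 0.28 ± 0.22 (adjusted p = 0.462), and was higher in VAT in 3 of 4 lean mice.

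In obese mice, 5 of the 9 receptors tested were higher in VAT, beside 16.3% of all genes that were higher and 31.3% that differed. The log2 difference was 1.51 ± 0.21 for Tlr9 (adjusted p = 1.62e-05), 1.48 ± 0.21 for Tlr7 (adjusted p = 1.48e-05), 1.28 ± 0.18 for Tlr13 (adjusted p = 1.40e-05), 1.06 ± 0.31 for Tlr2 (adjusted p = 0.0131) and 1.02 ± 0.30 for Tlr8 (adjusted p = 0.0133, edgeR, n = 4 mice). All 5 were higher in VAT in 4 of 4 obese mice. Tlr13 was higher in VAT by 2.21, 3.17, 1.39 and 3.48 times in obese mice 1 to 4, and Tlr7 by 3.84, 3.06, 2.21 and 2.49 times. The call of Tlr2 was lost without obese mouse 2 (adjusted p = 0.0776) and that of Tlr8 without obese mouse 4 (0.0843). Tlr4, at -0.22 ± 0.23 (adjusted p = 0.496), was higher in VAT in 1 of 4 obese mice. Tlr5 was at -0.26 ± 0.38 (adjusted p = 0.649).

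Whether the diet response differed between the tissues was tested as VAT minus SAT of the log2 responses. No receptor passed at an adjusted p of 0.05 in edgeR, where 2.47% of all genes did, and 3 receptors had an unadjusted p under 0.05. Tlr7 had a difference of 1.14 ± 0.32 (adjusted p = 0.0650), Tlr13 of 1.00 ± 0.28 (adjusted p = 0.0681) and Tlr5 of -1.41 ± 0.58 (adjusted p = 0.231, edgeR). DESeq2 called 2 of them, Tlr13 (adjusted p = 0.0198) and Tlr7 (0.0269), and edgeR called Tlr13 with no filter on low counts (0.0315) and without obese mouse 3 (0.00998), while the range over all alternatives reached 0.214 for Tlr13 and 0.159 for Tlr7. The response of Tlr7 past the threshold in VAT and not in SAT is therefore not shown to differ between the tissues by edgeR. For Tlr9 and Tlr8 the difference was 0.38 ± 0.32 and -0.48 ± 0.54 (adjusted p = 0.641 and 0.740).

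Markers of macrophages rose with the diet in both tissues, and some markers of other immune cells rose in VAT, where 6.35% (SAT) and 6.89% (VAT) of all genes tested rose. Of 12 macrophage genes 10 were tested, and 7 rose in SAT and 9 in VAT. Their summed level lay between 1477 and 2108 CPM in lean SAT, 2400 and 3326 in obese SAT, 2566 and 3285 in lean VAT and 5568 and 7841 in obese VAT, and Lyz2 made up 49.7% of these counts. The macrophage gene Adgre1 (F4/80) had between 2 and 5 counts in each group, and adds almost nothing to this sum. Of 7 B cell genes tested none rose in SAT and 3 in VAT (Pax5, Cd79b and Cd79a), and the summed level of the 8 genes lay between 8.70 and 16.7 CPM in lean SAT, 9.55 and 16.02 in obese SAT, 44.8 and 326 in lean VAT and 262 and 491 in obese VAT. Of 7 dendritic cell genes tested 0 and 4 rose, with summed levels of 77.4 to 98.5 CPM, 90.9 to 106, 83.2 to 93.6 and 98.1 to 142 in the same order of groups. Of 5 T and NK cell genes tested 0 and 4 rose, with 6.82 to 10.3 CPM, 9.23 to 23.1, 21.1 to 45.2 and 63.1 to 103, and of 4 mast cell genes 0 and 3, with 46.8 to 71.2 CPM, 63.1 to 107, 15.3 to 30.3 and 23.2 to 99.7. Of 2 neutrophil genes tested 0 and 1 (S100a8) rose, with 8.29 to 22.8 CPM, 15.4 to 18.7, 2.91 to 7.57 and 6.44 to 12.6. Of the 8 adipocyte genes 3 fell in VAT (Lipe, Adipoq, Plin1), where 5.28% of all genes fell. Of 5 intestinal epithelial genes tested, Zg16 was at 2.85 ± 2.41 CPM in lean and 0.132 ± 0.153 in obese VAT, and Slc5a1 at 1.80 ± 1.97 and 0.160 ± 0.162 (SD, n = 4). Both entered the test only through lean VAT, so no call is given for them, and the other 3 did not pass. Of the markers that rose in VAT, 3 (Ccr7, Cd8a and Lck) entered only through obese VAT. The summed level of the 7 intestinal genes was 14.5 to 21.5 CPM in lean SAT, 10.3 to 16.1 in obese SAT, 13.1 to 49.7 in lean VAT and 15.5 to 17.8 in obese VAT, so it spread most in lean VAT. No tested endothelial (5), mesothelial (6), skeletal muscle (1) or fibroblast (6) gene passed the test of the diet in either tissue. The part of any cell type in the receptor changes was not tested.

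Receptor counts were also set beside the counts of the 12 macrophage genes in the same library. Such a ratio also moves with the marker genes, of whose counts Lyz2 held 49.7%. The markers responded unequally to the diet in VAT, for example Cd68 by 4.98-fold and Csf1r by 1.83-fold. Tlr13 had 4.63, 4.37, 4.14 and 4.75 counts per 1000 macrophage counts in lean SAT and 14.8, 11.2, 9.76 and 12.2 in obese SAT. In VAT it had 2.19, 3.01, 3.86 and 3.95 in lean mice and 16.6, 13.0, 8.11 and 15.6 in obese mice. Relative to these genes, too, Tlr13 was higher in every obese library than in every lean library. The same held beside Cd68 alone (17.2 to 24.7 per 100 Cd68 counts in lean SAT, 27.9 to 39.6 in obese SAT, 14.9 to 23.9 in lean VAT and 28.5 to 49.0 in obese VAT) and beside Csf1r alone (2.59 to 3.87, 5.81 to 9.12, 1.42 to 2.55 and 5.98 to 13.7 per 100 Csf1r counts).

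For Tlr9 and Tlr7 the diets were less separated beside the macrophage genes. Tlr9 had 3.24 to 3.63 counts per 1000 macrophage counts in lean SAT, 3.19 to 5.31 in obese SAT, 3.19 to 7.45 in lean VAT and 5.33 to 6.87 in obese VAT, and the diets overlapped in both tissues. Tlr7 had 1.94 to 2.50, 1.71 to 2.47, 1.10 to 1.93 and 1.93 to 3.34 in the same order, with lean and obese VAT meeting at 1.93. Tlr8 had 0.129 to 0.384 in lean SAT and 0.412 to 0.884 in obese SAT, without overlap, and 0.252 to 0.658 and 0.519 to 0.667 in lean and obese VAT, with overlap. Tlr4 had 3.74 to 4.70 in lean and 1.58 to 1.88 in obese VAT, without overlap, and 3.34 to 7.64 and 3.49 to 5.42 in SAT. Tlr4 was thus lower in obese VAT beside these genes, while Tlr13 was higher. Beside single macrophage genes, the values of Tlr7, Tlr9 and Tlr8 depended on the gene. Per 100 Cd68 counts, Tlr7 had 7.46 to 15.2 in lean VAT and a lower range of 5.07 to 9.84 in obese VAT, with overlap, while per 100 Csf1r counts it had 0.709 to 1.34 and 1.46 to 2.75, higher in obese mice without overlap. Tlr9 had 16.1 to 50.7 in lean and 11.9 to 20.3 in obese VAT per 100 Cd68 counts, and 2.05 to 4.82 and 4.00 to 5.67 per 100 Csf1r counts, all with overlap. In SAT, Tlr7 had 8.06 to 12.6 in lean and 4.58 to 7.80 in obese mice per 100 Cd68 counts, lower without overlap. Tlr9 had 14.3 to 18.6 in lean and 10.1 to 15.2 in obese SAT per 100 Cd68 counts, with overlap. Per 100 Csf1r counts the diets overlapped in SAT for both receptors. In SAT Tlr8 had 0.538 to 2.11 in lean and 1.18 to 2.35 in obese mice per 100 Cd68 counts, with overlap, and 0.0808 to 0.242 and 0.245 to 0.553 per 100 Csf1r counts, without. Tlr4 was lower in obese VAT without overlap beside either gene, at 18.9 to 31.3 and 3.53 to 6.19 per 100 Cd68 counts. These ratios were not tested. Tlr9 and Tlr7 are also known from B cells and dendritic cells. In VAT 3 of 7 tested B cell genes and 4 of 7 tested dendritic cell genes rose, beside 6.89% of all genes. The rest of both lists did not pass, and the dendritic cell gene Ccr7 entered the test only through obese VAT. The part of these cells in the receptor values was not tested.

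**Figure D4:**
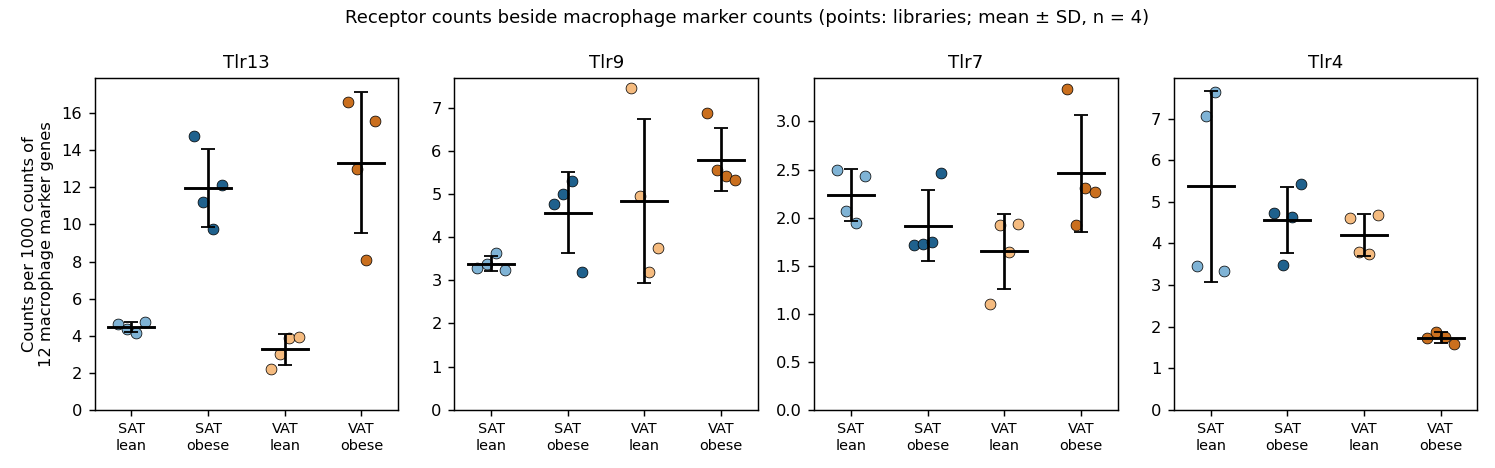
The y axis of each panel gives the counts of 1 receptor per 1000 counts of 12 macrophage genes in the same library, by group, with points for libraries and bars for the mean and SD over 4 mice. Tlr13 is higher in every obese library, at 8.11 or more, than in every lean library, at 4.75 or less, and Tlr4 is lowest in obese VAT, at 1.88 or less.

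The genes that handle, transport and transmit the receptors were taken from a list of 63, of which 45 were tested. In SAT 9 of them rose and none fell, where 6.35% of all genes tested rose, and in VAT 18 rose and none fell, where 6.89% did. Of these 18, 3 (Ccl3, Ccl4 and Tlr12) passed the filter on low counts only through obese VAT. Among the 11 tested genes for co-receptors and transport, 7 rose in SAT and 9 in VAT. Cd180, a surface relative of the receptors that binds Ly86, rose by 2.34 ± 0.44 on the log2 scale in SAT (adjusted p = 0.00118) and by 1.64 ± 0.37 in VAT (adjusted p = 0.00456). Ctss, a protease that cleaves endosomal receptors, rose by 1.19 ± 0.30 (adjusted p = 0.0119) and 2.13 ± 0.29 (adjusted p = 3.84e-05), from 1.79 to 3.84 CPM in SAT and from 2.18 to 10.3 CPM in VAT. The proteases Ctsb, Ctsl and Lgmn rose in both tissues, Lbp and Cd36 in SAT, and Ly86, Cd14, Ly96 and the chaperone Hsp90b1 in VAT.

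Partners of Tlr4 were measured too. Cd14, which hands lipopolysaccharide to Tlr4, had a mean of 20.8 ± 5.47 CPM in lean SAT, 27.7 ± 3.75 in obese SAT, 30.1 ± 4.43 in lean VAT and 53.0 ± 10.4 in obese VAT. Its log2 fold change was 0.81 ± 0.19 in VAT (adjusted p = 0.00588) and 0.42 ± 0.19 in SAT (adjusted p = 0.155). Ly96 (MD-2), the lipid-binding partner of Tlr4, had 0.81 ± 0.25 in VAT (adjusted p = 0.0366) and 0.38 ± 0.25 in SAT (adjusted p = 0.361, edgeR). Cd14 and Ly96 thus rose in VAT, where Tlr4 was at -0.10. Unc93b1, which carries endosomal receptors from the endoplasmic reticulum, had 14 counts in all over its 3 entries and was not tested, and Cnpy3 had no count in any group over its 5 entries. Such low counts of genes with several entries were not read as low expression.

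Of the 3 adaptors tested, none passed the test of the diet in either tissue. Myd88 was at 65.6 ± 3.29 CPM (SD, n = 4) in lean SAT, 67.9 ± 1.38 in obese SAT, 69.4 ± 3.95 in lean VAT and 83.1 ± 10.9 in obese VAT, with log2 fold changes of 0.05 ± 0.11 (adjusted p = 0.830) and 0.26 ± 0.11 (adjusted p = 0.1295, edgeR). Ticam1 had 0.14 ± 0.16 in SAT (adjusted p = 0.624) and 0.34 ± 0.16 in VAT (adjusted p = 0.177, edgeR). Between the tissues Ticam1 was higher in VAT, by 0.47 ± 0.15 in lean mice (adjusted p = 0.0384) and 0.63 ± 0.14 in obese mice (adjusted p = 0.00188).

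Further along the pathway, 1 of 10 tested kinases and ubiquitin ligases rose in SAT (Tbk1, 0.43 ± 0.10, adjusted p = 0.00619) and 2 in VAT (Irak4, 0.44 ± 0.11, adjusted p = 0.0120, and Ikbke, 0.91 ± 0.25, adjusted p = 0.0184). Of 6 tested transcription factors none rose in SAT and 1 in VAT, the NF-kB subunit Rel, by 0.56 ± 0.16 (adjusted p = 0.0206). Counts this small in lists of this size lie near the 6.35% (SAT) and 6.89% (VAT) of all genes that rose. Of 5 tested negative regulators, Nfkbia, the inhibitor of NF-kB that NF-kB itself induces, rose in both tissues, by 0.73 ± 0.21 in SAT (adjusted p = 0.0250) and 1.02 ± 0.21 in VAT (adjusted p = 0.00272, edgeR). Among the 8 tested cytokines that the receptors can induce, none passed in SAT and 3 chemokines passed in VAT, Ccl3, Ccl4 and Ccl5. Ccl5 rose by 1.87 ± 0.32 (adjusted p = 5.00e-04), from 6.96 to 23.0 CPM. Ccl3 (0.227 ± 0.213 CPM in lean and 2.25 ± 1.24 in obese VAT) and Ccl4 (0.793 ± 0.803 and 1.94 ± 0.930, SD, n = 4) entered the test only through obese VAT, where they are high, so their calls support nothing and are given as levels. Il1b, Tnf, Il6 and Ifnb1 had too few counts to be tested, and Ifnb1 had none. The other Toll-like receptors of the mouse, Tlr11 and Tlr12, both for a protein of protozoa, did not pass in SAT. In VAT Tlr11 rose by 1.06 ± 0.28 (adjusted p = 0.0143), and Tlr12, which also entered the test only through obese VAT, was at 1.06 ± 0.494 CPM in lean and 5.59 ± 1.72 in obese mice (SD, n = 4).

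Between tissues, 6 of the 45 pathway genes were higher and 1 lower in VAT of lean mice, where 8.67% of all genes were higher and 15.9% differed. In VAT of obese mice 20 were higher and 5 lower, beside 16.3% of all genes that were higher and 31.3% that differed. The counts in lean mice lie near the share of all genes, and 4 of the 20 (Tlr12, Il12b, Ccl3 and Ccl4) passed the filter only through obese VAT. In obese mice Ikbke (1.91 ± 0.26, adjusted p = 9.50e-06), Ly86 (1.30 ± 0.16, adjusted p = 3.69e-06) and Ccl5 (1.85 ± 0.28, adjusted p = 4.09e-05) were higher in VAT, and Lbp, the plasma carrier of lipopolysaccharide, was lower (-1.21 ± 0.12, adjusted p = 2.72e-07). The diet response differed between tissues for 2 of the 45, near the 2.47% of all genes: Ly86 responded more in VAT (0.91 ± 0.24, adjusted p = 0.0452) and Cd36 less (-0.76 ± 0.19, adjusted p = 0.0372, edgeR).

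**Figure D5:**
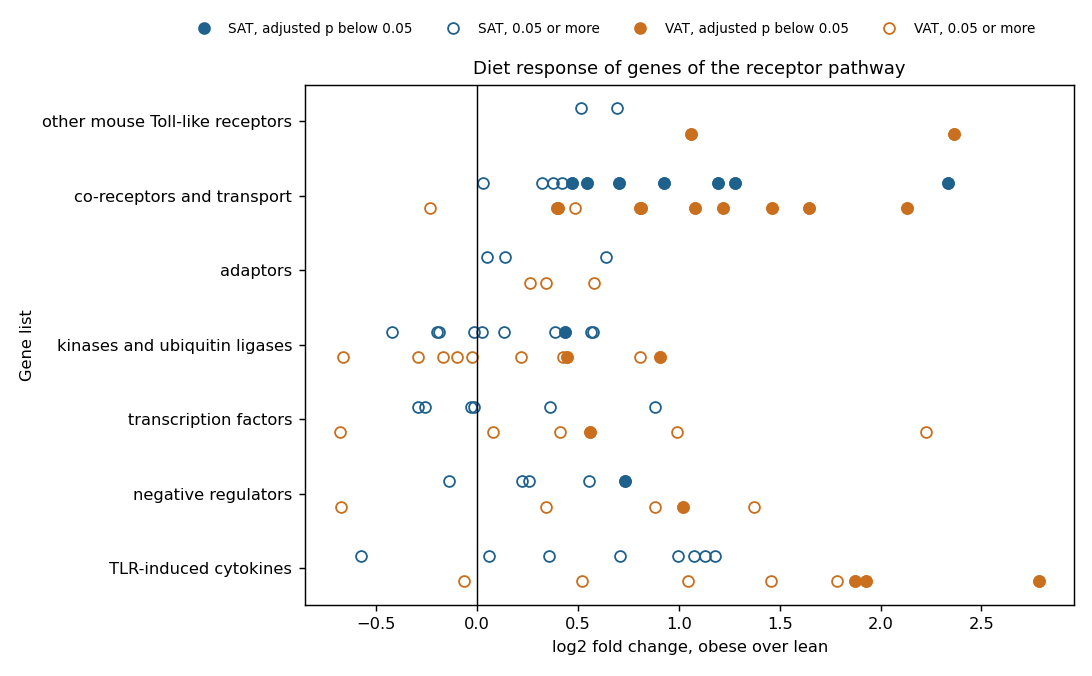
Each point is 1 tested gene of the receptor pathway, placed by its log2 fold change of obese over lean mice (x axis) in its list (y axis), for SAT (blue) and VAT (orange). Filled points passed an adjusted p of 0.05: 9 in SAT and 18 in VAT, all on the right of 0, and none among the adaptors.

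As a description, the genes most like each receptor across the 16 libraries were found by Pearson correlation of log2 CPM, where the libraries share their groups and depth. Tlr13 was most like Cd68 (r = 0.979), a lysosomal protein of macrophages, then Apobec1 (0.967) and Ccl9 (0.957). Tlr9 was most like Arhgap30 (0.977), Itga4 (0.973) and Laptm5 (0.973), Tlr7 like Nckap1l (0.948), Slamf7 (0.944) and Slc15a3 (0.942), and Tlr8 like Tnfrsf1b (0.963) and Gch1 (0.952). The group means carry much of this: after the mean of each group was taken off, r was 0.704 for Tlr13 with Cd68 and 0.889 for Tlr9 with Arhgap30. Tlr4 had the lowest leading correlation, with Ddx21 (0.780), followed by Lnpep (0.772) and Gm4951 (0.759). For the receptors with fewer counts the leading genes were 4833407H14Rik for Tlr2 (0.923), D730005E14Rik for Tlr1 (0.889), Ephx1 for Tlr3 (0.893) and Gspt1 for Tlr5 (0.863).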

How the data were processed

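RNA was measured in SAT and VAT of 4 lean and 4 obese mice. The authors trimmed paired-end reads with Trim Galore 0.6.6, aligned them with HISAT2 2.2.0 to GRCm39 and counted them with HTSeq 0.13.5 per RefSeq transcript. The Trim Galore version is that of the deposited sample records, and the paper prints another. The strand setting and the treatment of reads shared by transcripts are not given in the sources used here, and the library kit keeps strand. The deposited table holds raw counts and CPM in 32 columns, and the deposited CPM values equal the counts over the column total within 4.9e-10.

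Entries were given symbols by RefSeq identifier (106821 entries, 82.0%), and counts were summed per symbol (59078 features with those lacking a symbol). Promoter windows are from RefSeq tables of GRCm38.p6, with none used here for Tlr4 and Tlr7. The 16 libraries were fitted together in edgeR 4.0.16 (R 4.3.3, TMM, quasi-likelihood F-test, legacy=TRUE) over 12185 features with a CPM above 1 in at least 3 libraries (biological coefficient of variation 0.205). P-values were adjusted by Benjamini-Hochberg and called below 0.05. The mouse was a block in the tissue comparisons, since each mouse gave both libraries. As a check, deviations from the group means correlated between -0.00144 and 0.175 (median 0.0765) in 8 pairs of 1 mouse, and between -0.155 and 0.117 (median -0.0373) in 24 pairs of different mice. In each of 24 pairs of replicates the counts differed beyond counting error, with a chi-square of at least 8.88 per degree of freedom.

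On simulated data with 200 genes changed by 2 on the log2 scale, edgeR called 99.5% of them in SAT (11532 genes), 98% in VAT (11556 genes) and 92.5% for the difference between tissues (11516 genes), and 3.4%, 6.67% and 7.5% of its calls were false. The changed genes were drawn only from well-counted genes, and no mouse effect was simulated. These rates therefore do not hold for smaller changes or for receptors with few counts (Tlr1, Tlr3, Tlr5, Tlr6 and Tlr8). Alternatives were RLE size factors, no filter, filterByExpr, DESeq2 1.42.0, legacy=FALSE, limma voom (limma 3.58.1) with the mouse as a random effect, a fit of 1 tissue, other blocks, counts per entry and each mouse left out.

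The receptors, the gene lists and the cell type markers were chosen with earlier results of these data known. The genes named are the 10 receptors, at most 4 called genes per pathway list and comparison by adjusted p, Myd88, Ticam1, Cd14, Ly96 and Unc93b1, the 3 genes most like each tested receptor (1 gene is not reported here), and defining markers. Cnpy3, Il1b, Tnf, Il6, Ifnb1, Il12b, Zg16, Slc5a1, Ccr7, Cd8a, Lck and the further co-receptor and transport genes that rose were named after their values were seen. Endothelial, mesothelial, intestinal, muscle and fibroblast markers were also counted.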

Additional observations from a re-analysis of the deposited data

Results flagged for a closer look

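Among 40 groups of 4 libraries (10 receptors in 4 groups), 1 held a library far from the others by Dixon's ratio, where chance flags about 1 in 20. It is Tlr2 in obese VAT, at 9.51 CPM in replicate 1 beside 4.68 to 5.32 CPM in the other 3 (ratio 0.867, above the 95% critical value for 4 samples). That library has 25 counts of Tlr2 and 2247737 counts in all, the lowest total in its group.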

How the results depend on the processing

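Of 771 results for single receptors under the alternatives, 736 kept direction and side of the threshold, 13 lost a call, 12 gained one and 10 changed sign. The calls of Tlr13, Tlr8 and Tlr9 in SAT and of Tlr13, Tlr7, Tlr9 and Tlr8 in VAT held under all 18 alternatives run on them. None of the results that changed sign was called. The tissue difference of Tlr1 was -0.13 with counts per entry. This difference, with each mouse left out, lay between -0.34 and 0.80 for Tlr1, -0.39 and 0.36 for Tlr2, and -1.09 and 0.12 for Tlr3. VAT over SAT in obese mice, with each mouse left out, lay between -0.044 and 0.44 for Tlr3 and -0.48 and 0.12 for Tlr5. The count of receptors whose diet response differed between tissues was 1 with no filter and 2 with DESeq2, and between 0 and 1 with each mouse left out (1 without obese replicate 3). The count higher in lean VAT was 1 without the mice of the 2 shallowest VAT libraries, an alternative chosen after seeing the data, and between 1 and 3 with each mouse left out (1 without lean replicate 3).

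The log2 ratio of surface to endosomal counts, obese minus lean, was -0.41 in SAT and -1.27 in VAT when the log2 values of the members (pseudocount 0.5) were averaged in place of the sums, and 0.13 and -0.94 without Tlr4 and Tlr13. With each mouse left out it lay between -1.05 and -0.70 in SAT and between -2.18 and -1.94 in VAT. The cause of these changes was not tested.

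With the replicate number as a block, 3 receptors were called in SAT and 4 in VAT, as without it. Lean and obese libraries of the same number correlated between -0.0929 and 0.172 (median 0.0675) and share only a number. Without the mouse block, 0 receptors were called for the difference, 3 in lean and 5 in obese mice, as with it.

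Over all genes, counts of calls moved by more than 1.5 times from 1414 in SAT to 927 without lean replicate 2, from 1482 in VAT to 846 without obese replicate 4, from 301 for the difference to 453 with DESeq2, 139 with no mouse block, and 173, 147, 177 and 134 without lean replicates 2, 3 and 4 and obese replicate 4, from 1937 in lean mice to 1276 without lean replicate 3, and from 3818 in obese mice to 2490 without obese replicate 4. The fewest counts are behind Tlr1, Tlr3 and Tlr6, with 121, 118 and 50, and whether depth or reads shared by transcripts sets these was not tested.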
